A study of Mus musculus with 6 samples.

Results

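The 10 genes Dusp4, Dusp5, Dusp6, Spry1, Spry2, Spry4, Spred1, Spred2, Etv4 and Etv5 are called feedback genes of the FGF-ERK pathway here. They were taken by name. Each was found on the array under its own symbol, on 12 features in all, out of 23521 features that carry a single gene symbol and stand for 22180 genes. They were measured in R1 cells, a male embryonic stem cell line of mixed 129X1 and 129S1 strain derived from the inner cell mass, grown on gelatin in fetal bovine serum with LIF, the cytokine that maintains self-renewal. The 3 untreated samples had no addition, and the 3 treated samples had 0.74 mM (250 µg/ml) AA2G for 3 days. AA2G is a glucoside of vitamin C (ascorbic acid 2-glucose in the labels) that is stable in medium. Both groups share the line, serum and LIF, so the results describe a single line in 1 culture medium. Each sample was read on 1 Affymetrix Mouse Gene 2.0 ST array. The series text calls the samples independent replicates, and the labels number them 1 to 3 in each group. Values are log2 expression, so a difference of 1 is a doubling, and all differences are AA2G minus untreated.

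In mouse embryonic stem cells, FGF ligands, FGF4 above all, act through FGF receptors, RAS, RAF and MEK to activate the kinase ERK, which moves cells out of the naive state. ERK switches on genes whose products damp the same cascade. Among them, the DUSP phosphatases remove the activating phosphates from ERK, and Sprouty and SPRED proteins act upstream on RAS and RAF. ERK also switches on the genes of the ETS factors ETV4 and ETV5, which carry the signal to further genes. Transcripts of all these genes are widely used as readouts of FGF-ERK signalling.

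Promoter sequences of 7 of the 10 genes, at 8 transcription starts, were matched by symbol in RefSeq (GRCm38.p6). Only the 250 bases before each start were used. The hexamer TGAATG, on either strand, is the core of the octamers read by Capicua, a repressor that ERK removes from its targets. Only the hexamer was searched, so a match need not be 1 of those octamers. The hexamer was present at 3 of the 8 starts, those of Dusp5, Dusp6 and 1 of the 2 starts of Etv5. It was in 10.9% of 32851 mouse promoters of the same length. The CArG box, which binds serum response factor, was searched by the usual consensus and reads alike on both strands. It was found at 1 of the 8 starts, that of Dusp5, and in 1.47% of all promoters. The ETS hexamer CCGGAA was in 0 of the 8 and in 12.0% of all. These motifs were picked with the sequences in view, and a match describes letters, not a site in use. The 3 promoters with a match are shown 5′ to 3′ because they hold those letters, with TGAATG (or CATTCA, the same hexamer on the other strand) and the CArG boxes in capitals. Dusp5 is at chr19:53528895-53529144 on the plus strand, Dusp6 at chr10:99262981-99263230 on the plus strand, and Etv5 at chr16:22438369-22438618 on the minus strand.
Dusp5: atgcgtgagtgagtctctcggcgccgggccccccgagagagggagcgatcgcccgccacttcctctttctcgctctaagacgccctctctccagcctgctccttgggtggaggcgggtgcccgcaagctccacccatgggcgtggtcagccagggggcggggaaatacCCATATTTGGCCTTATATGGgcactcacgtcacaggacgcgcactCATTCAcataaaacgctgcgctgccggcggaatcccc
Dusp6: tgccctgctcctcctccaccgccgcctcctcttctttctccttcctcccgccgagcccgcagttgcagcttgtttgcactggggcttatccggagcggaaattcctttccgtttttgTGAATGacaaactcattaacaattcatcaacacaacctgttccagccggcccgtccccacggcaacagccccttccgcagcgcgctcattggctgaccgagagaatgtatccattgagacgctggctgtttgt
Etv5: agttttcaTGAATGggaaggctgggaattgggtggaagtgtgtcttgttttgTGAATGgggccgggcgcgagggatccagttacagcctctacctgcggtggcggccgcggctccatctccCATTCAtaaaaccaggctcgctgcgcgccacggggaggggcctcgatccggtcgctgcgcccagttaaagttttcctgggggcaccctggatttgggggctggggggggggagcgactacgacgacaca
In the Dusp5 promoter, 2 CArG boxes lie end to end, 72 and 62 bases before the start, and the hexamer lies 31 bases before it. A pair or more of CArG boxes occurred in 6 of the 32851 promoters (0.0183%). The hexamer lies 127 bases before the Dusp6 start and 236, 192 and 123 bases before the Etv5 start. At least 2 copies were present in 0.950% of all promoters. None of the marked stretches overlapped another. The 8 windows held 12 to 31 CpG dinucleotides, against a median of 6 over all promoters.

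None of the 10 feedback genes changed past the threshold with AA2G. Dusp4 and Dusp5 had higher values on every AA2G array than on any untreated array, and Spred1 and Spred2 had lower ones. The brighter features of Dusp6 and Etv5, and those of Spry1, Spry2, Spry4 and Etv4, had overlapping groups. In the limma fit 0 of the 12 features passed a Benjamini-Hochberg adjusted p of 0.05, against 179 of all 23521 features (0.761%). At a nominal p under 0.05, before adjustment, 3 features were higher and 1 was lower, where the shares over all features were 4.66% higher and 5.06% lower. The AA2G arrays lay all above the untreated arrays for 3 features and all below for 2, against 7.21% and 8.48% of all features. The median difference over the 10 genes, with the brightest feature of each, was -0.05, and over all features it was -0.01. The fitted differences ran from -0.31 to 0.32. Their 95% intervals, taken feature by feature, lay between -0.58 and 0.53, and the farthest bound corresponds to a 1.50-fold change. In bulk samples such as these, a changed share of cells that carry a transcript and a changed level per cell cannot be told apart.

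**Figure D1:**
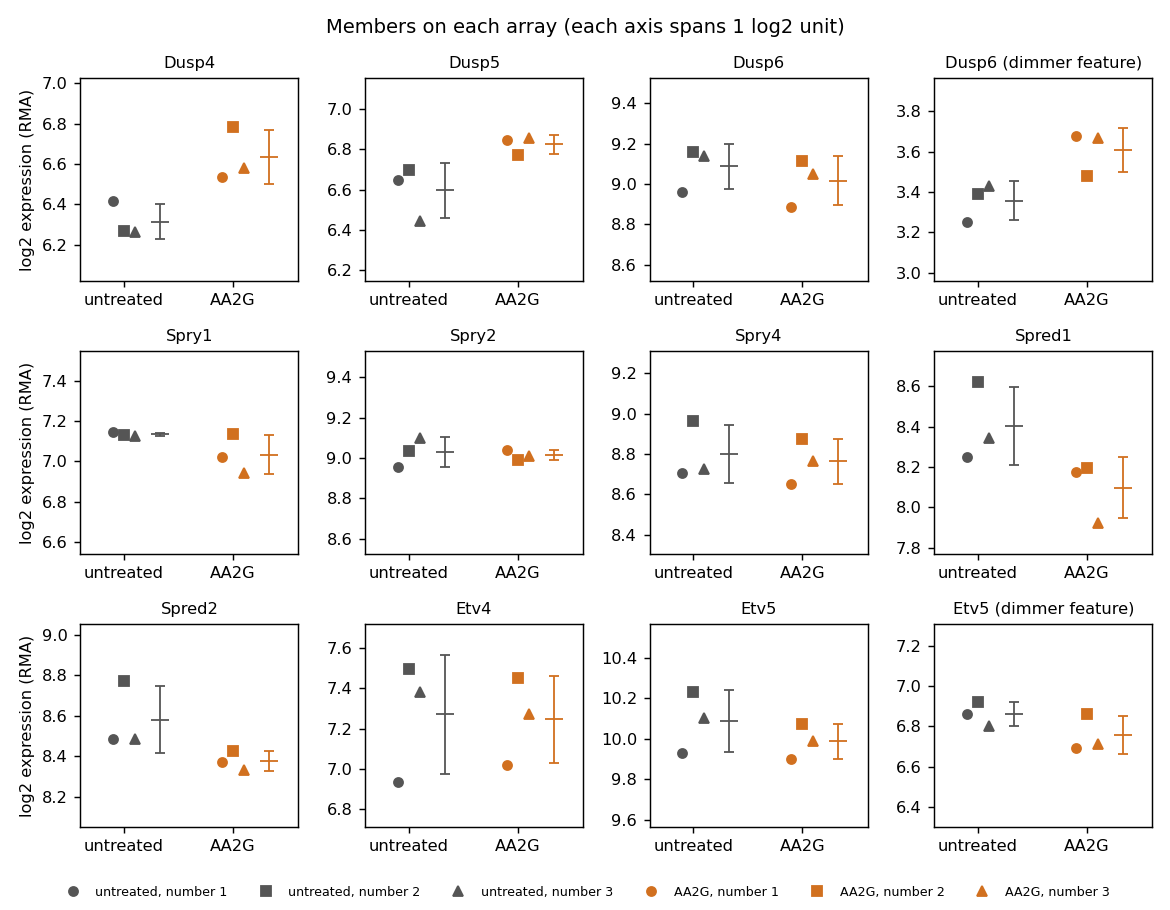
Log2 expression of the 12 features of the 10 genes, with 1 point per array (marker shape gives the replicate number) and the mean with SD beside each group of 3 arrays. Every vertical axis spans 1 log2 unit at its own level. The groups separate for Dusp4, Dusp5, Spred1, Spred2 and the dimmer Dusp6 feature, and overlap for the other 7 features.

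The 3 phosphatase genes encode MAP kinase phosphatases that act on ERK, DUSP6 mainly in the cytoplasm and DUSP4 and DUSP5 in the nucleus. Dusp4 (Entrez Gene 319520) read 6.41, 6.27 and 6.26 on untreated arrays 1 to 3 and 6.54, 6.78 and 6.58 on AA2G arrays 1 to 3. The groups did not overlap, and the nearest arrays of the 2 groups were those of number 1. The group means were 6.31 ± 0.09 and 6.63 ± 0.13 (SD, n = 3 each), a difference of 0.32 ± 0.09 (SE) with a limma adjusted p of 0.249. This was the largest rise and the smallest p among the members. Across the 15 alternative settings its adjusted p lay between 0.0775, with array weights, and 0.580, without untreated replicate 3.

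Dusp5 (240672) read 6.65, 6.69 and 6.44 on the untreated arrays and 6.84, 6.77 and 6.86 on the AA2G arrays. Untreated array 3 was the low one, and the AA2G arrays sat close together just above the untreated range. The means were 6.60 ± 0.13 and 6.82 ± 0.05 (SD, n = 3 each), and the difference was 0.23 ± 0.09 (SE; limma adjusted p = 0.433). Without untreated replicate 3 the difference was 0.15. Within replicate numbers the AA2G array was higher by 0.19, 0.08 and 0.41.

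Dusp6 (67603), the phosphatase gene most often used as an ERK readout, has 2 features, and they disagreed. Its bright feature read 8.96, 9.16 and 9.14 on the untreated arrays and 8.88, 9.12 and 9.05 on the AA2G arrays. The groups overlapped widely, and the difference was -0.07 ± 0.09 (SE), with a 95% interval from -0.28 to 0.14 and a limma adjusted p of 0.874. The other feature read 3.25, 3.39 and 3.43 untreated and 3.67, 3.48 and 3.67 with AA2G, without overlap. It differed by 0.25 ± 0.09 (SE; limma adjusted p = 0.374), but it was the only member feature under 4.99, the mean level that 40% of the tested features do not reach. A level this low cannot be told from background.

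Sprouty proteins are induced by growth factors and inhibit receptor tyrosine kinase signalling to RAS and RAF. Spry1 (24063) read 7.14, 7.13 and 7.13 on the untreated arrays and 7.02, 7.14 and 6.95 on the AA2G arrays. The untreated arrays were nearly equal, and AA2G array 2 lay among them while the other two lay below. The difference was -0.10 ± 0.08 (SE; limma adjusted p = 0.750). Spry2 (24064) read 8.95, 9.03 and 9.10 untreated and 9.04, 8.99 and 9.01 with AA2G. All AA2G values of Spry2 fell inside the untreated range, and the difference was -0.02 ± 0.07 (SE), with a 95% interval from -0.18 to 0.15 (limma adjusted p = 0.972). Spry4 (24066) read 8.71, 8.96 and 8.73 untreated and 8.65, 8.87 and 8.77 with AA2G. In both groups of Spry4 array 2 was the highest, and the difference was -0.03 ± 0.10 (SE; limma adjusted p = 0.952).

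SPRED proteins, relatives of the Sproutys, bring the RAS-GTPase activator neurofibromin to the membrane and thereby hold RAS back. Spred1 (114715) read 8.25, 8.62 and 8.34 on the untreated arrays and 8.17, 8.19 and 7.92 on the AA2G arrays. Untreated array 2 was the high one and AA2G array 3 the low one, and the groups were separated by less than 0.1. The means were 8.40 ± 0.19 and 8.10 ± 0.15 (SD, n = 3 each), a difference of -0.31 ± 0.12 (SE; limma adjusted p = 0.441), the most negative value among the members. Spred2 (114716) read 8.49, 8.77 and 8.48 untreated and 8.37, 8.43 and 8.33 with AA2G. Untreated array 2 again stood above the rest, and the difference was -0.20 ± 0.10 (SE; limma adjusted p = 0.550), with a 95% interval from -0.42 to 0.02. Without untreated replicate 2 the differences were -0.20 for Spred1 and -0.11 for Spred2.

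Etv4 and Etv5 encode ETS transcription factors of the PEA3 group. Etv4 (18612) read 6.93, 7.50 and 7.38 on the untreated arrays and 7.02, 7.45 and 7.27 on the AA2G arrays. It had the widest spread among the members, with array 1 low in both groups, and its difference was -0.02 ± 0.16 (SE; limma adjusted p = 0.982). Its 95% interval from -0.40 to 0.35 was the widest of the 12. Etv5 (104156) read 9.93, 10.23 and 10.10 untreated and 9.90, 10.07 and 9.99 with AA2G on its brighter feature, a difference of -0.10 ± 0.10 (SE; limma adjusted p = 0.813). Its other feature read 6.86, 6.92 and 6.80 untreated and 6.69, 6.86 and 6.71 with AA2G, again a difference of -0.10 with an SE of 0.08 (limma adjusted p = 0.751). The groups overlapped on both features of Etv5. The brighter one was at -0.18 without untreated replicate 1, -0.03 without untreated replicate 2 and -0.06 without AA2G replicate 1, where the other was at -0.10, -0.08 and -0.07, and without AA2G replicate 2 they were at -0.14 and -0.16.

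**Figure D2:**
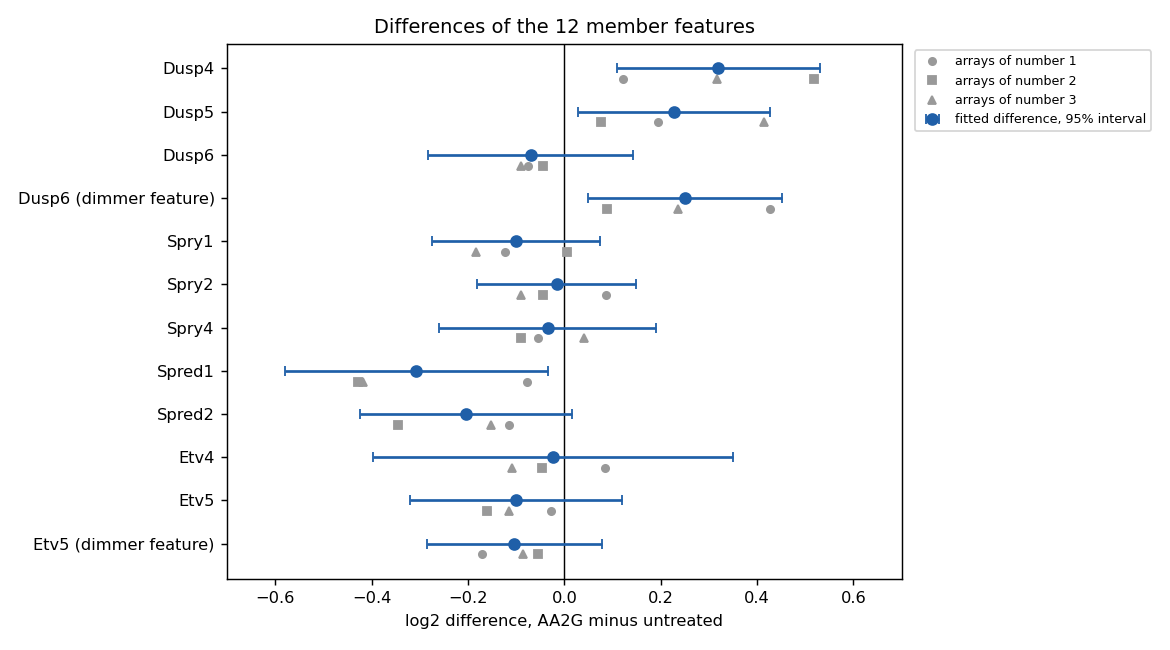
Fitted log2 difference, AA2G minus untreated, of the 12 features (blue points, with feature-by-feature 95% intervals), and in grey the difference between the 2 arrays that share a replicate number. Intervals of Dusp4, Dusp5, Spred1 and the dimmer Dusp6 feature leave out 0, but 0 of the 12 features passed the adjusted threshold.

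By replicate number, the AA2G array was the higher one in all 3 numbers for 3 of the 12 features, those of Dusp4 and Dusp5 and the dimmer one of Dusp6, against 15.8% of all features. It was the lower one in all 3 numbers for 5 features, the bright one of Dusp6, both of Etv5, and those of Spred1 and Spred2, against 20% of all features. The bright Dusp6 feature differed by little in each number, at -0.08, -0.05 and -0.09. Spred1 differed by -0.08 in number 1 and by -0.43 and -0.42 in numbers 2 and 3. Dusp4 differed by 0.12, 0.52 and 0.32. For Etv4, Spry1, Spry2 and Spry4 the sign was mixed across numbers.

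The members were also laid out by replicate number within each group. For the bright features of Dusp6 and Etv5 and those of Etv4 and Spry4, array 1 was the lowest and array 2 the highest among the untreated arrays and again among the AA2G arrays. This was so for 4 of the 12 features, against 8.47% of all features and 11.7% of the brighter ones (mean above 4.99). With Spred2, the order of the numbers was the same in both groups for 5 of the 12, against 25.3% of all features and 31.2% of the brighter ones. These patterns were picked after the values were seen. Etv4 spanned 0.56 from array 1 to array 2 among the untreated arrays and 0.43 among the AA2G arrays, and its AA2G difference of -0.02 was small beside that. In a limma fit with group and replicate number as factors, the moderated F test of the number gave 0 of the 12 features an adjusted p under 0.05, as it did for 0% of all features. At a nominal p under 0.05 it picked 1 member feature, that of Etv4 (limma adjusted p = 0.403), against 10.9% of all features. This count depended on the setting. It was 6 with the trended robust prior (3715 of all 23521 features) and 4 with brighter features only (2646 of 14112). The labels do not say what the numbers stand for.

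**Figure D3:**
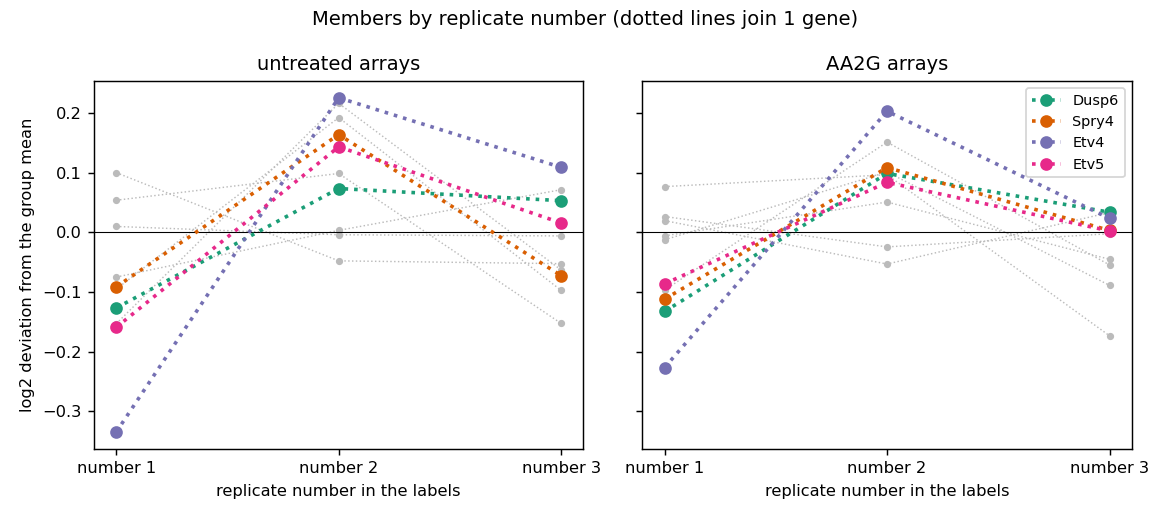
Deviation of each gene's brightest feature from its group mean (log2), by the replicate number in the labels, in untreated arrays (left) and AA2G arrays (right). Coloured points mark Dusp6, Spry4, Etv4 and Etv5, whose array 1 is lowest and array 2 highest in both panels, and grey points the other 6 genes. Dotted lines only join the points of a gene.

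The genes most alike in pattern to Dusp6, Spry4 and Etv5 were sought among 12678 (for Etv5, 12677) brighter features of protein-coding genes, by Pearson's r over the 6 arrays. Next to Dusp6 came Pcgf2 (r = 0.999), Nprl3 (0.996) and Sart1 (0.996). Next to Spry4 came Utp15 (0.994), Bms1 (0.991) and Pafah2 (0.988). Next to Etv5 came Rprd1b (0.998), Atp5h (0.997) and Bnc2 (0.997). Over only 6 arrays such values were common: r was above 0.9 for 476 features with Dusp6, 397 with Spry4 and 657 with Etv5. Because the search was for likeness over these arrays, the nearest neighbours shared the low array 1 and the high array 2. Pcgf2, for example, read 7.87, 8.12 and 8.11 untreated and 7.79, 8.08 and 7.98 with AA2G.

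Around the 10 feedback genes, the rest of the pathway was described from 4 lists, with the brightest feature of each gene. The counts of these lists, and of the marker lists after them, stand beside the shares over all features, 0.761% past the adjusted threshold and, by nominal p, 4.66% higher and 5.06% lower. Of 13 genes for FGF ligands and their receptors, 1 fell in the limma fit and 0 rose. It was Fgf15, a secreted FGF, which read 7.66, 7.55 and 7.35 untreated and differed by -0.92 ± 0.13 (SE; limma adjusted p = 0.0211). Its second feature was at -0.19, and the call was lost without each of untreated replicates 1, 2 and 3 and AA2G replicates 2 and 3 (adjusted p from 0.0561 to 0.0933). The receptor gene Fgfr2 was at -0.33 ± 0.14, the binding protein gene Fgfbp1 at -0.22 ± 0.09 and Fgf17 at -0.29 ± 0.18, and these 3 did not pass. A nominal p under 0.05 was reached by 0 higher and 3 lower genes, Fgf15, Fgfr2 and Fgfbp1. Fgfr2 (4.89 untreated, 4.55 with AA2G) and Fgfbp1 (4.15 and 3.93) lay under 4.99, so their levels cannot be told from background. In all, 6 of the 13 genes were this dim. The median of this list was -0.11, with 10 negative values.

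Of 24 listed genes of the cascade from adaptors to ERK and its kinase targets, 16 were measured under a single symbol and 8 were not analysed here. In limma 0 passed, a nominal p under 0.05 was reached by 1 higher and 1 lower gene, and the median was -0.05. Rps6ka3, a kinase phosphorylated by ERK, was at -0.34 ± 0.08 (SE; limma adjusted p = 0.165), and it passed with array weights. Map2k2, the MEK2 gene, was at 0.23 ± 0.08, the exchange factor gene Sos1 at -0.15 ± 0.07 and the phosphatase gene Ptpn11 at -0.18 ± 0.09.

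Of 23 other negative regulators, relatives of the Dusp, Spry and Spred genes among them, 0 passed in limma, a nominal p under 0.05 was reached by 0 higher and 4 lower genes, and the median was -0.05. These 4 were Flrt3 at -0.40 ± 0.11 (SE; limma adjusted p = 0.218), Lrig3 at -0.34 ± 0.13, the ERK phosphatase gene Dusp7 at -0.24 ± 0.10 and the ubiquitin ligase gene Cbl at -0.16 ± 0.07. Flrt3 was dim, at 4.97 untreated and 4.57 with AA2G, both under 4.99. Of 24 listed ETS factors and early targets of ERK, 22 were measured and 0 passed in limma. A nominal p under 0.05 was reached by 0 higher genes and 1 lower gene, and the median was 0.00. That 1 was the cyclin gene Ccnd1 at -0.38 ± 0.15 (SE; limma adjusted p = 0.458). The early response genes Fos, at 0.26 ± 0.13, Junb, at 0.14 ± 0.07, and Egr3, at 0.15 ± 0.08, did not pass. They were named for their small p, and 11 values of the list were positive and 11 negative. Its lowest value was that of Myc, at -0.51, and its highest that of Egr1, at 0.50.

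**Figure D4:**
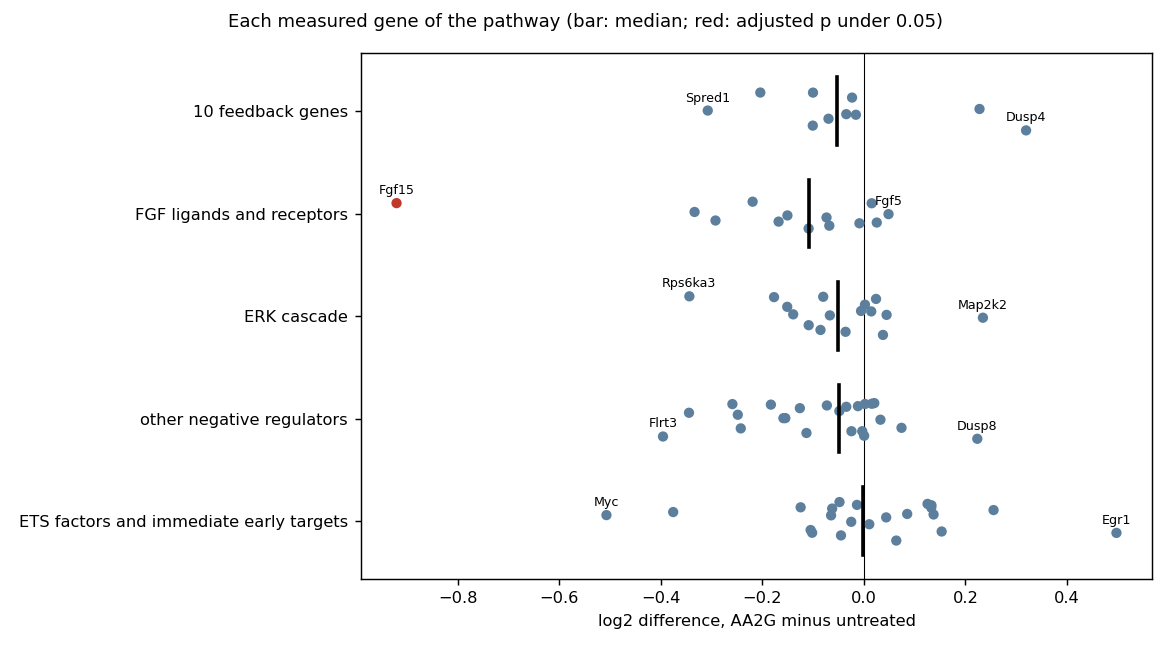
Log2 difference, AA2G minus untreated, of every measured gene of the 10 feedback genes and the 4 pathway lists, with a black bar at each median and the lowest and highest gene of each row named. The only gene past the adjusted threshold, in red, is Fgf15 at -0.92. The feedback genes lie between -0.31 (Spred1) and 0.32 (Dusp4).

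Of the embryonic stem cell markers, Nanog was at 11.34 ± 0.03 untreated and 11.17 ± 0.04 with AA2G (SD, n = 3 each, limma adjusted p = 0.445). All 10 listed pluripotency genes lay above 4.99, but so did 9 of 10 primitive endoderm and 6 of 7 epiblast and mesoderm genes. The same held for 3 of 5 neuroectoderm and 4 of 7 fibroblast genes. Mean levels of the pluripotency genes ran from 5.11 to 12.03, and the highest in the other marker lists was 8.60. Summed over the 10 pluripotency genes, log2 levels were 97.2 to 97.4 in untreated cells and 96.4 to 96.5 with AA2G, without overlap. Of these 10 genes 0 passed in limma, and 3 were lower and 0 higher by nominal p (Klf4, Nanog and Pou5f1). Sums of the FGF, ERK cascade and other negative regulator lists were also lower with AA2G without overlap. Those of the ETS factors and early targets overlapped. The FGF sum includes Fgf15 at -0.92 and 6 dim genes among its 13. How often other lists of genes separate by their sums was not counted. The separated sums, those of the pluripotency genes included, therefore describe these arrays only. For 10 primitive endoderm genes the sums were 59.2 to 59.9 and 59.6 to 60.2. Here 0 passed, while by nominal p 2 were higher (Lama1 at 0.50 and Sparc at 0.34) and 1 lower (Sox7 at -0.20). Sums overlapped between groups for the markers of epiblast and mesoderm, neuroectoderm and fibroblasts, with 0 of 19 genes past the threshold in limma and 2 lower and 0 higher by nominal p (Sox1 and Dcn). Dcn was dim, at 4.03 untreated and 3.76 with AA2G. The part of these marker levels in the values of Dusp4, Dusp5, Spred1 and Spred2 was not tested.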

How the data were processed

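RNA of 6 samples was hybridised to 6 arrays. The deposited table holds log2 values per feature, which the authors produced by RMA with the program Affymetrix Expression Console, as the submitters' processing notes say. Versions and filters: not given in the sources used here. RMA corrects background, equalises the distributions of the arrays and summarises probes, so a change in total RNA is not seen and dim features understate changes. The table has no detection calls. Precision is limited by how many arrays there are.

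Symbols came from the platform annotation: of 41345 features, 23521 have 1 symbol, 1814 several and 16010 none listed. Only the first were tested. All 10 genes matched RefSeq through Entrez Gene. The fit was limma 3.58.1 in R 4.3.3 (lmFit, eBayes, two-sided, no covariate, 6 arrays), with Benjamini-Hochberg adjustment over the 23521 features. It was also run on simulated data with independent noise on each array. That run left out the likeness between same-numbered arrays given below, so it does not cover it. With 3 arrays a group an exact permutation test reaches 0.1 at the lowest. The replicates are called independent, without saying of which step, so p-values speak of the spread between these samples. Intervals use the moderated t distribution of limma. The members, lists and tests were chosen with earlier results of these data known. Named genes are all members, the 4 genes of each pathway list with the smallest p, and the 3 genes nearest in pattern to Dusp6, Spry4 and Etv5; marker genes follow the same rule, with fewer printed. Alternatives were repeated quantile normalization, a common median, array weights, a trended robust prior, brighter features, the replicate number as a block, all features, 1 feature per gene, ordinary variances and leaving out each array. Promoters and figures used Python 3.11.15.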

Additional observations from a re-analysis of the deposited data

How the results depend on the processing

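None of the 12 member features passed under any of the 15 alternatives in which it was fitted; the lowest adjusted p was 0.0775 (Dusp4, array weights). Of 177 recomputed member values 170 kept their direction. The other 7 turned sign around 0: Spry4 was at 0.00243 with array weights, and with single arrays left out Spry4 ran from -0.0891 to 0.0472, Etv4 from -0.191 to 0.0900 and Spry2 from -0.0533 to 0.0200. The median of the 10 genes ran from -0.12 to -0.02. The number of member features at an unadjusted p under 0.05 was 4, and 1 to 4 without single arrays (2 without AA2G replicate 1, 1 without AA2G replicate 3). Over all features, calls were 277 with the trended robust prior, 496 with array weights, 13 with ordinary variances, and 64 to 131 with single arrays left out. The number of pathway genes called was 1, and it was 2 with array weights (Fgf15 and Rps6ka3), 0 with all features or ordinary variances and 0 to 1 with single arrays left out. In the test of the replicate number, the trended robust prior called 1 member feature and 708 of all features. The causes were not tested.

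Deviations from the group mean correlated between same-numbered arrays at 0.231, 0.224 and 0.0169 for numbers 1, 2 and 3 over all tested features. Over the brighter features these values were 0.447, 0.441 and 0.0523. Number 3 thus does not show a pair, although each array correlated best with its own number. Deviations within a group sum to 0, so the values for numbers 1 and 2 are not independent of each other. With the replicate number as a block, 155 features were called in place of 179 and 0 of the 12 member features, of which 5 were at an unadjusted p under 0.05. The arrays limit what can be seen: the table has no background calls, so the dimmer Dusp6 feature has no firm level.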
